A study of Mus musculus with 7 samples.

Results

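The genes described here encode the hnRNP, SR and related RNA-binding proteins, which decide together how nuclear RNA is spliced, held and exported, and among which TDP-43, the product of *Tardbp*, is itself an hnRNP. They are 47 of the 37310 genes in the count file, taken by name: *Tardbp*, 17 hnRNP genes, 10 SR genes, 2 genes of the FET family, 4 genes of paraspeckle and nuclear matrix proteins, 3 genes of stress granule proteins and 10 genes of other regulators of alternative splicing. RNA of whole mammary gland from C57BL/6 mice at lactation day 1 (L1) was sequenced in 3 WT libraries and 4 *Tardbp* KO libraries, to ask which transcripts differ in the gland when TDP-43 is removed. WT mice carried 2 intact *Tardbp* alleles with the WAP-Cre transgene, and KO mice carried floxed *Tardbp* alleles with the same transgene. Cre is driven by the *Wap* promoter, that of a milk protein gene, in luminal epithelial cells from pregnancy onwards, so myoepithelial, immune, fat and stromal cells in the gland keep an intact *Tardbp*. The recombination removes exons 2 and 3.

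TDP-43 is a mostly nuclear protein that binds UG-rich RNA, represses the use of cryptic exons and limits its own mRNA through its 3′ UTR. The hnRNP proteins coat nascent transcripts and often silence splice sites, whereas SR proteins bind exonic enhancers and recruit the spliceosome, so the balance between the families sets many splice choices. Proteins of both families regulate the splicing of their own and each other's transcripts, and several of them, like TDP-43, are found in stress granules.

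Because TDP-43 binds UG repeats, the annotated transcripts of the genes were searched on the sense strand for runs of at least 3 UG dinucleotides, written TG in DNA letters. The longest transcript of *Tardbp* (7477 bases) holds 5 such runs with 16 UG in all, and every one of them lies in the 3′ UTR, in exon 6. They are shown because they are the stretches of its own mRNA with the letters that TDP-43 is known to bind, in windows of 30 bases with the run in capitals, on the minus strand of chromosome 4 (NCBIM37), at chr4:147991560-147991565, chr4:147991243-147991248, chr4:147987880-147987887, chr4:147987688-147987693 and chr4:147986652-147986657.
Tardbp run 1: cttttgaaacctTGTGTGggattgatggtg
Tardbp run 2: aatgctgtatggTGTGTGttctcctctgtt
Tardbp run 3: tcctcctatagTGTGTGTGgacagcccaca
Tardbp run 4: ctggacaggactTGTGTGcaggaggacatg
Tardbp run 5: ggtggggagaggTGTGTGaataaccatttt

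A second set is shown because it ties together 3 related hnRNP genes, *Hnrnpa1*, *Hnrnpa3* and *Hnrnpa2b1*, whose products bind RNA as core hnRNP particles. Each has a run of 3 UG in the coding sequence of exon 2, at chr15:103071622-103071627 on the plus strand, chr2:75499640-75499645 on the plus strand and chr6:51417184-51417189 on the minus strand.
Hnrnpa1: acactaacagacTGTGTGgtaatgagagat
Hnrnpa3: acacttacagacTGTGTGgtaatgagagat
Hnrnpa2b1: aagctcacagacTGTGTGgttatgcgggat
The windows of *Hnrnpa1* and *Hnrnpa3*, taken from the spliced transcripts, share 29 of 30 bases, and each shares 24 of 30 with that of *Hnrnpa2b1*. A last set is shown from the 2 genes with a higher level in every KO library, 1 coding run of *Atxn2* in exon 17 (chr5:122247330-122247335, plus strand) and 2 runs of *Pspc1* in the 3′ UTR in exon 8 (chr14:57343788-57343795 and chr14:57343572-57343577, minus strand).
Atxn2: gtacactcagccTGTGTGcttcgcacccaa
Pspc1 run 1: cagaactctacTGTGTGTGgaaaaaaccaa
Pspc1 run 2: tgaagataccttTGTGTGgctaaaacgtaa

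UG runs occurred in most of these genes and in most tested genes with an annotated protein-coding transcript. At least 1 run was present in the longest transcript of 36 of the 47 genes (76.6%) and of 71.5% of these 15112 genes. *Celf1*, whose product binds GU-rich elements, had the most, with 9 runs and 29 UG. *Hnrnph2* had the longest, a single run of 18 UG outside the 3′ UTR. Per kb of transcript the members' median was 1.17 UG in runs, against 1.43 over the same 15112 genes. With introns included, a run of at least 10 UG was found in 21 of the 47 genes (44.7%) and in 54.6% of the 17175 genes tested. In 11 members none was found in the transcript, among them *Srsf2*, *Srsf9*, *Ewsr1*, *Taf15*, *Sfpq*, *Matr3*, *Mbnl2* and *Esrp1*. These matches are letters in a transcript and not measured binding.

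All 47 genes passed the filter on low counts (at least 5 counts in at least 4 libraries), with between 200 and 24104 counts per library and gene. Levels between genes are compared per kb of the whole exon length of the gene, as RPKM on the library sizes scaled by TMM, the normalisation of edgeR. That length includes exon bases shared with other genes, where reads were not counted. In WT the highest mean was that of *Hnrnpa2b1* with 179 ± 33.0 RPKM (SD, n = 3), followed by *Srsf5* with 137 ± 32.5, *Hnrnpa1* with 123 ± 15.4 and *Hnrnpk* with 120.5 ± 10.1 RPKM, and these neighbours lay within each other's spread. The lowest were *Hnrnph3* with 2.14 ± 0.22 RPKM, *Celf2* with 2.42 ± 0.341 and *Pspc1* with 2.60 ± 0.496 RPKM, which also overlapped. Most exon bases of *Hnrnph3* are shared with another gene, so its place as the lowest is uncertain. Most exon windows of *Hnrnpa1* recur elsewhere in the genome, where reads were possibly lost, so the order at the top is uncertain too. *Tardbp* stood at 24.97 ± 4.36 RPKM in WT and at 25.2 ± 3.78 RPKM in *Tardbp* KO (n = 4), in the middle of the group and beside *Srsf3* and *Srsf11*. The 4 genes at the top were the same in KO, where *Hnrnpa2b1* had 127 ± 19.7 RPKM, *Srsf5* 125 ± 16.6, *Hnrnpk* 110.2 ± 7.14 and *Hnrnpa1* 106 ± 14.9 RPKM.

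**Figure D1:**
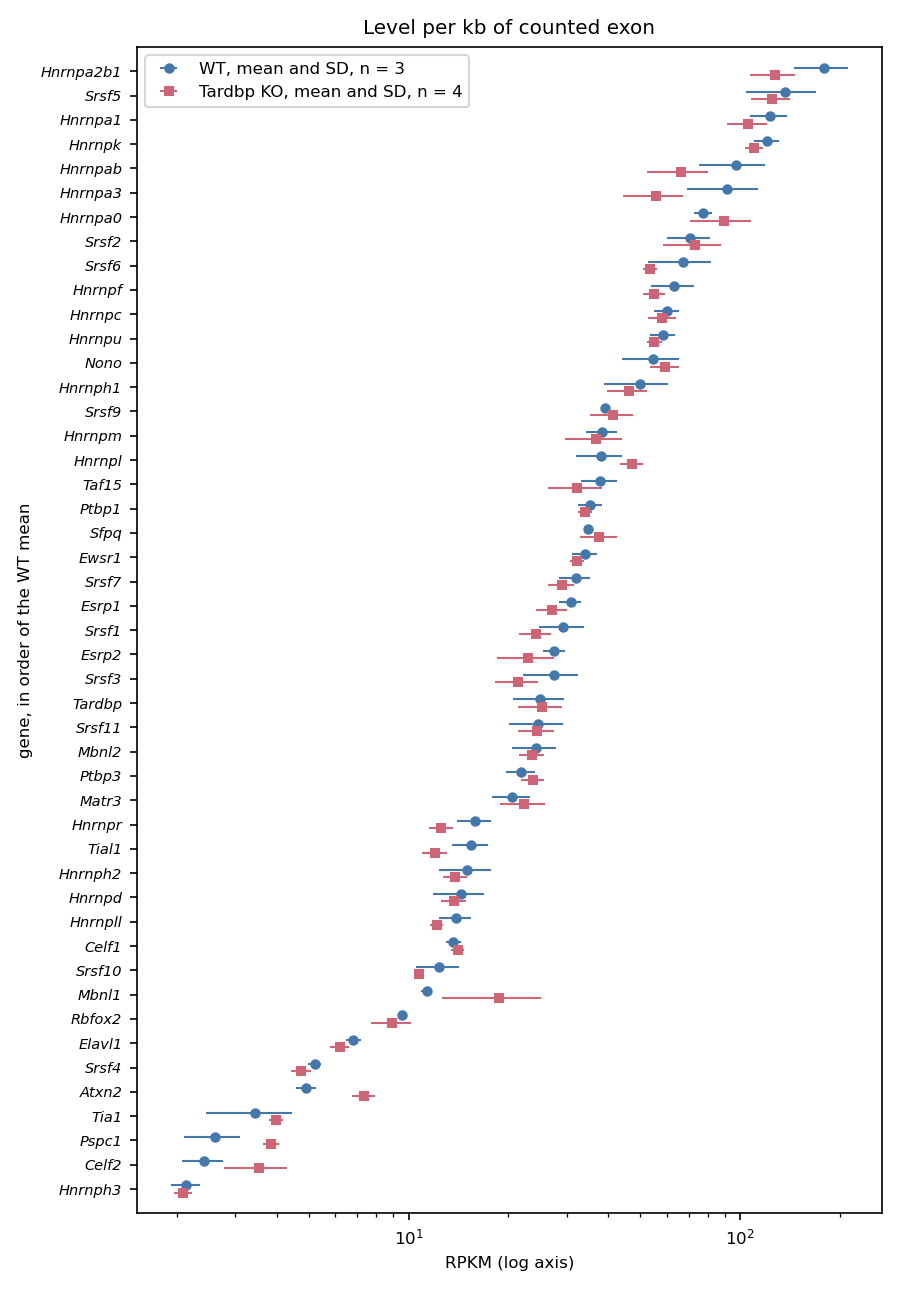
Level of each of the 47 genes in RPKM (log axis) as mean and SD of 3 WT libraries (circles) and 4 *Tardbp* KO libraries (squares), in the order of the WT mean. Levels run from 2.14 RPKM for *Hnrnph3* to 179 RPKM for *Hnrnpa2b1* in WT, and the order is nearly the same in both genotypes. The whole exon length is the divisor, and most of that of *Hnrnph3* is shared with another gene, so its place is uncertain. The place of *Hnrnpa1* near the top is also uncertain, as most of its exon windows recur in the genome.

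These genes varied less between libraries than most. The median coefficient of variation over the members was 12.5% in WT and 9.66% in *Tardbp* KO, against 21.0% and 22.3% over all genes tested, and the median level was 127 CPM (counts scaled to the library size after TMM) against 13.1 CPM. *Srsf9* was the steadiest in WT (0.696%) and *Srsf10* in KO (1.36%), while *Tia1* in WT (29.04%) and *Mbnl1* in KO (33.1%) varied most.

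*Tardbp* itself, the targeted gene, showed no difference in its gene count beyond the spread. It stood at 223, 178 and 159 CPM in WT and at 214, 176, 154 and 208 CPM in *Tardbp* KO, so that the libraries of both genotypes covered the same range. The log2 fold change was 0.01 ± 0.18 (SE), and a 2-sided exact permutation test over all 35 arrangements of the genotype labels gave p = 0.971, where the smallest possible is 0.0286. The deleted exons hold 416 of the 7477 exon bases of the gene (5.56%), reads of cells that do not express Cre add to the count, and 24.3% of its exon bases overlap exons of *Masp2* on the opposite strand, so the count neither shows nor excludes the deletion. In these libraries the genotype therefore rests on the labels.

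None of the 47 genes was called with edgeR's quasi-likelihood test at the limits that the study had set (adjusted p below 0.01 and a change of more than 1 on the log2 scale in either direction). Nor was any other gene (0.0% of 17175), and 1 gene, no member, had an adjusted p under 0.05 in that test (0.00582%). At an unadjusted p under 0.05 that test counted 9 members (19.1%) and 3674 genes in all (21.4%), of which 4 members (8.51%, against 10.7% of all genes) had a higher level in KO and 5 (10.6%, against 10.7%) a lower one. edgeR's exact test called 2.44% of all genes (1.01% higher and 1.43% lower in KO) and DESeq2 3.33% (1.69% higher and 1.64% lower), and neither called a member. With no limit on the fold the exact test called 3.23% of all genes and again no member. The members' log2 fold changes ran from -0.71 to 0.72 and their adjusted p from 0.0793 to 0.982 in edgeR. No member passed a fold of 1 on the log2 scale, as 11.1% of all genes did, and 6 members (12.8%) passed 0.5, as 31.5% of all genes did.

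With TMM most of these genes had a slightly lower level in KO. A negative log2 fold change was found for 32 of 47 (68.1%) and for 45.7% of all genes tested, and the median was -0.09 against 0.05 for all genes. This sign depends on the scaling. Milk protein genes took 34.0, 26.3 and 26.4% of the counts in WT and 21.8, 14.8, 12.7 and 19.3% in KO. With the library size as the sole scaling the median of all genes moved to 0.42 and that of the members to 0.29, with 44 members above 0 and 3 below, and the distance between the medians was -0.13 there and -0.14 with TMM. Without WT replicate 1 the distance was -0.04, and 23 members lay above 0 and 24 below. That library had the highest level among the WT libraries for 33 of the 47 genes, and its median deviation from the WT mean over the members was 0.14 on the log2 scale, against -0.05 and -0.07 in the other WT libraries. In KO the same median was 0.01, -0.11, -0.19 and -0.06 for replicates 1 to 4. Over all genes tested the median deviation was 0.008, 0.012 and 0.007 in WT replicates 1 to 3. In KO replicates 1 to 4 it was 0.036, 0.082, 0.066 and 0.023 over all genes. The members' median deviation was highest in the library with the largest share of milk protein counts and lowest in that with the smallest. Between these the order differed, as KO replicate 1 (21.8%, 0.01) lay above WT replicates 2 and 3 (26.3 and 26.4%, -0.05 and -0.07). The part of milk protein RNA in this was not tested.

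**Figure D2:**
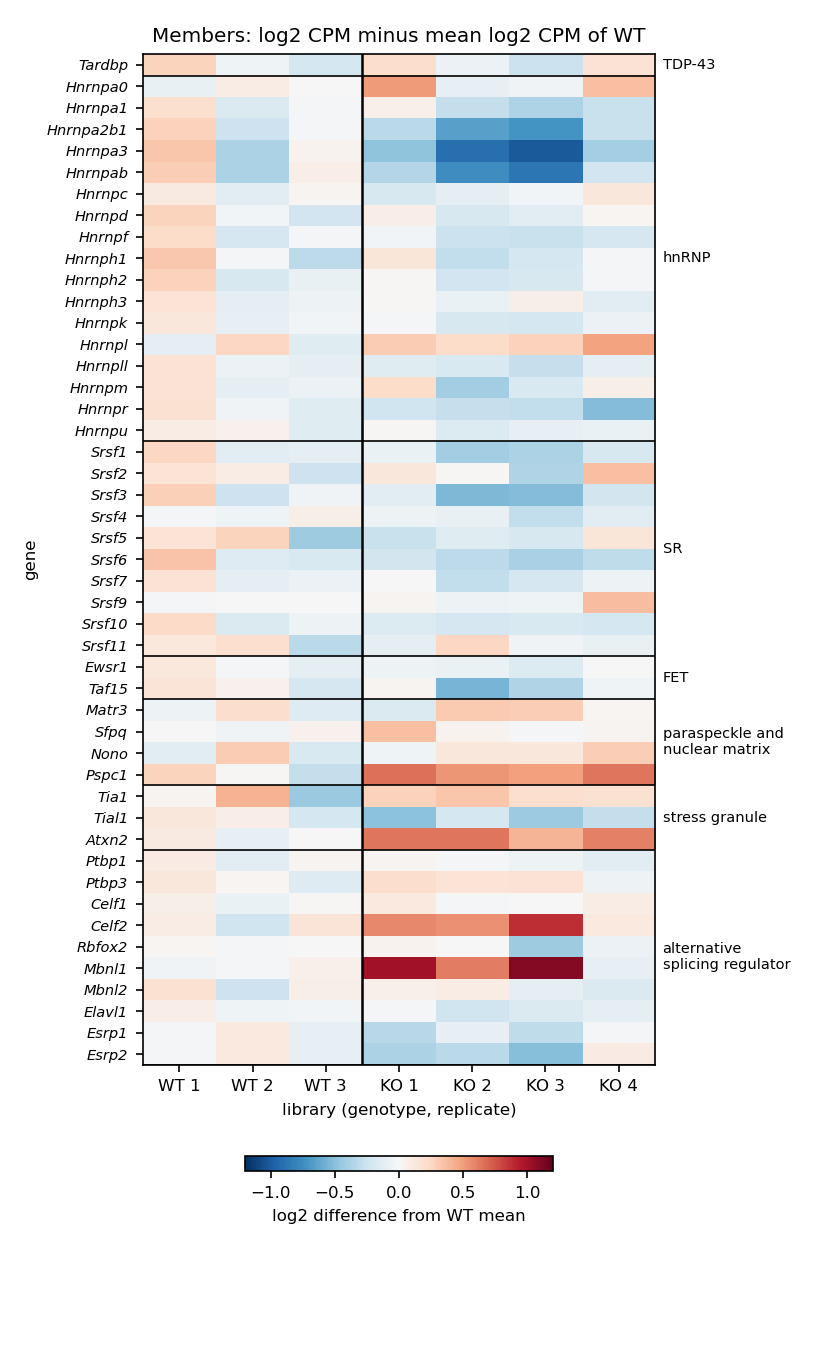
Log2 CPM of each gene (rows, grouped by role) in each library (columns) minus the gene's mean over the 3 WT libraries, with lower values in blue and higher values in red. *Hnrnpa2b1*, *Hnrnpa3* and *Hnrnpab* are lowest in KO replicates 2 and 3, *Pspc1* and *Atxn2* are red in every KO library, and *Mbnl1* and *Celf2* are red in KO replicates 1 to 3 and near the WT mean in replicate 4.

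In 9 of the 47 genes (19.1%) the libraries of the genotypes did not overlap, which was also the case in 18.7% of all genes tested. For 2 of them every KO library was higher (4.26%, against 9.07% of all genes) and for 7 every KO library was lower (14.9%, against 9.62%). The 2 were *Atxn2* and *Pspc1*, and the 7 were *Hnrnpa3*, *Hnrnpa2b1*, *Hnrnpr*, *Hnrnpll*, *Srsf6*, *Srsf4* and *Tial1*.

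*Atxn2* encodes ataxin-2, a protein of stress granules and RNA translation that is a known partner of TDP-43 in neurodegeneration. It stood at 37.8, 32.9 and 34.96 CPM in WT and at 55.0, 55.0, 46.5 and 53.4 CPM in *Tardbp* KO. The lowest KO library was above the highest WT library. The means were 35.2 ± 2.48 CPM (SD, n = 3) and 52.5 ± 4.04 CPM (n = 4), a log2 fold change of 0.58 ± 0.13 with an adjusted p of 0.0793 in edgeR. It had the lowest p of the 47 genes and rank 318 of all genes tested. The adjusted p was 0.0198 in edgeR's exact test and 0.00494 in DESeq2, so that without a limit on the fold DESeq2 called this gene as the only member (2.13%, against 4.92% of all genes). Over the 20 alternatives the log2 fold change stayed between 0.50 and 0.95. None of its exon windows of 50 bases recurs elsewhere in the genome.

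*Pspc1*, the gene of paraspeckle component 1, which forms dimers with SFPQ and NONO on the long RNA that builds paraspeckles, stood at 12.4, 10.4 and 8.44 CPM in WT. In KO it had 16.3, 14.9, 14.5 and 16.1 CPM, each above every WT library. The log2 fold change was 0.57 ± 0.18 (adjusted p = 0.129 in edgeR and 0.0461 in DESeq2). Its 3 companions also had positive fold changes, all of them well within the spread. *Nono*, a partner of *Sfpq* in transcription, splicing and DNA repair, had 217, 293 and 208 CPM in WT and 228, 260.4, 260.0 and 291 CPM in KO (log2 fold change 0.12 ± 0.18). *Matr3*, the gene of matrin 3, a protein of the nuclear matrix, had 0.12 ± 0.17. *Sfpq*, the member of this role with the smallest change, had 164, 160.3 and 171 CPM in WT and 212, 169.7, 163 and 169 CPM in KO, and its log2 fold change was 0.11 ± 0.15. KO replicate 1 was thus high for *Sfpq*, and the other KO libraries lay in or near the WT range. All 4 genes of this role had positive values under each of the normalisations tried.

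Of the remaining stress granule genes, the closely related *Tia1* and *Tial1* had values of opposite sign. Both encode RNA recognition motif proteins that bind U-rich stretches near 5′ splice sites and gather untranslated mRNA in granules. *Tial1* stood at 98.9, 94.8 and 77.6 CPM in WT and at 64.0, 77.5, 66.7 and 73.6 CPM in KO. The highest KO library was just under the lowest WT library, and the log2 fold change was -0.36 ± 0.14 (adjusted p = 0.188 in edgeR), or 0.02 when scaled by library size alone. *Tia1* had 44.3, 57.8 and 31.9 CPM in WT and 52.5, 54.8, 49.9 and 49.1 CPM in KO. The KO libraries lay inside the wide WT range, with a log2 fold change of 0.21 ± 0.19. The ratio of *Tial1* to *Tia1* does not depend on any scaling of the libraries. It was 2.24, 1.64 and 2.43 in WT and 1.22, 1.41, 1.34 and 1.498 in KO, a difference of -0.61 on the log2 scale without overlap. The exact permutation p was 0.0286, the smallest that 35 arrangements allow, and 0.143 after adjustment over the 10 pairs tried. The pair was chosen with these values known, which the adjustment does not correct, so both p-values are a description only.

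**Figure D3:**
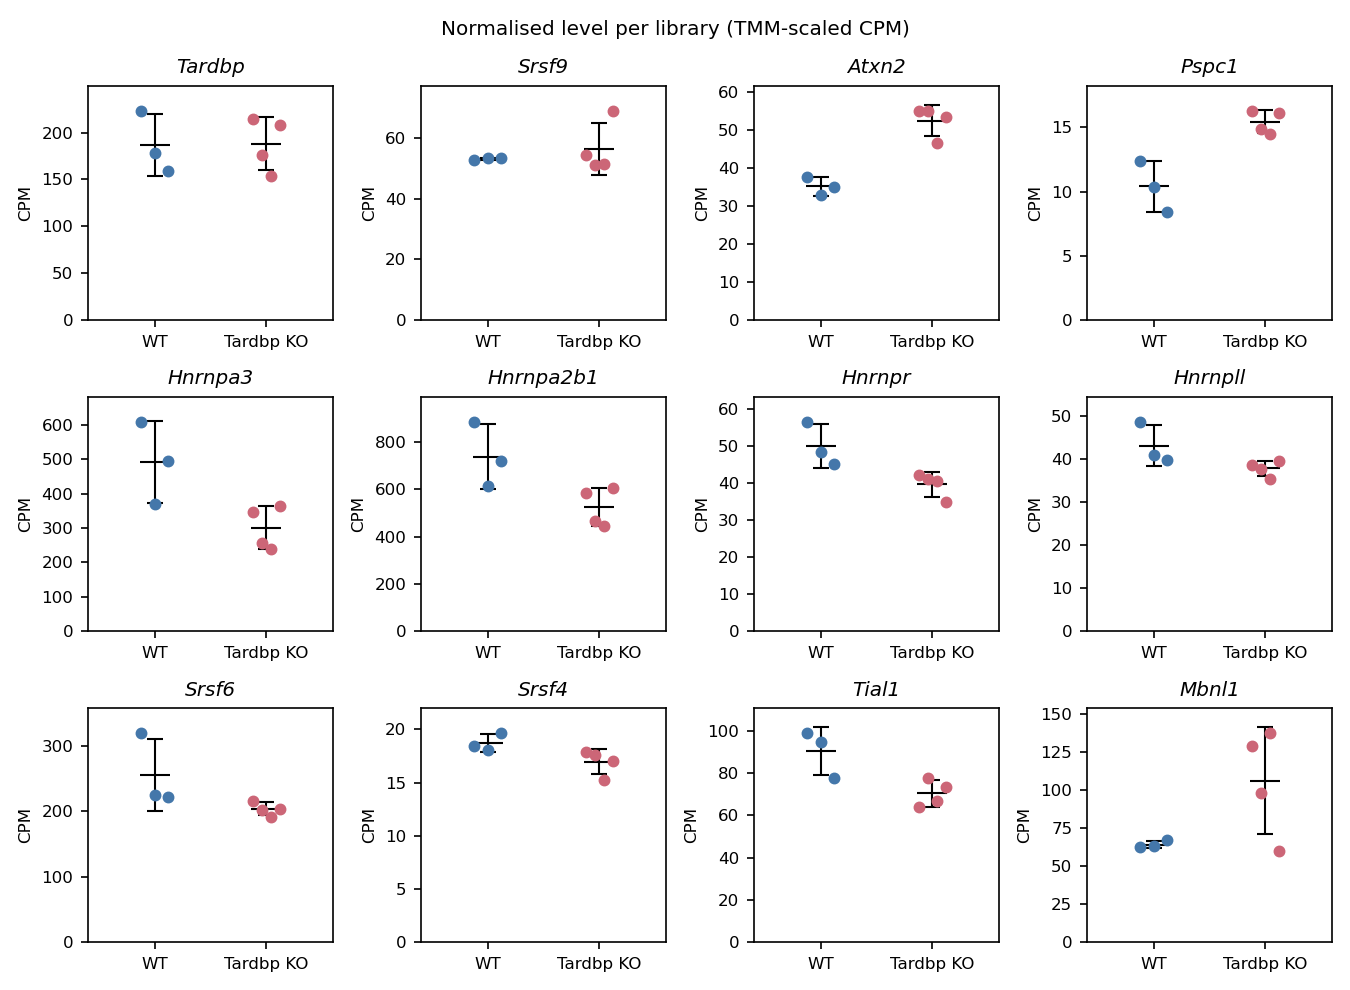
TMM-scaled CPM of 12 genes in each WT library (blue, n = 3) and each *Tardbp* KO library (red, n = 4), with the mean and SD in black and each axis starting at 0. *Tardbp* and *Srsf9* overlap, the KO libraries of *Atxn2* and *Pspc1* lie above all WT libraries, and those of *Hnrnpa3*, *Hnrnpa2b1*, *Hnrnpr*, *Hnrnpll*, *Srsf6*, *Srsf4* and *Tial1* lie below them, of which the last 5 have positive fold changes when scaled by library size alone.

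Among the 17 hnRNP genes, 15 had a negative log2 fold change and 2 a positive one, with a median of -0.12, or -0.17 from the median of all genes. When scaled by library size alone 14 were positive and 3 negative, at -0.16 from the median of all genes, and without WT replicate 1 there were 9 negative and 8 positive values. No hnRNP gene passed the test. The lowest adjusted p in edgeR was 0.137, that of *Hnrnpa3*, an hnRNP of the A/B group that takes part in RNA transport. It stood at 607, 370.2 and 495 CPM in WT and at 345, 257, 239 and 362 CPM in KO. Every KO library was below the lowest WT library, though by as little as 362 against 370.2 CPM. The means were 491 ± 119 and 301 ± 61.9 CPM, with the lowest log2 fold change of the 47 genes, -0.71 ± 0.23, and an adjusted p of 0.0444 in DESeq2.

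*Hnrnpa2b1*, the most abundant member as counted and a reader of modified and transported RNAs, stood at 882, 612 and 716 CPM in WT and at 583, 465, 443 and 604 CPM in KO. Its libraries were also separated by a narrow gap, and the log2 fold change was -0.49 ± 0.20 (adjusted p = 0.208 in edgeR). *Hnrnpab*, a related A/B protein that binds AU-rich RNA, had 350.5, 220.2 and 303 CPM in WT and 225, 170.5, 156 and 244 CPM in KO. Here 2 KO libraries were above the lowest WT library, and the log2 fold change was -0.55 ± 0.22. These 3 genes followed one another from library to library. They were highest in WT replicate 1, then in WT replicate 3, and lowest in KO replicate 3, the library with the smallest share of milk protein counts. In lane 4, the lane that holds libraries of both genotypes (WT replicate 2 and KO replicates 3 and 4), their log2 fold changes were -0.30 for *Hnrnpa3*, -0.23 for *Hnrnpa2b1* and -0.14 for *Hnrnpab*, values with no test.

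*Hnrnpr* and *Hnrnpll* showed smaller and tighter differences. *Hnrnpr*, the gene of a protein of mRNA transport and processing, had 56.4, 48.4 and 45.0 CPM in WT and 42.1, 41.0, 40.6 and 34.8 CPM in KO. All KO libraries were below all WT libraries, with a log2 fold change of -0.33 ± 0.14 (adjusted p = 0.202 in edgeR), or 0.05 when scaled by library size alone. *Hnrnpll*, best known for the splicing of *Ptprc* in T cells, had 48.6, 41.0 and 39.9 CPM in WT and 38.8, 37.8, 35.5 and 39.6 CPM in KO. The highest KO library was just under the lowest WT library, and the log2 fold change was -0.19 ± 0.13, or 0.19 when scaled by library size alone. Its relative *Hnrnpl*, which binds CA repeats, had one of the 2 positive hnRNP values, 208, 267 and 203 CPM in WT and 277, 262, 272 and 314 CPM in KO, with a log2 fold change of 0.31 ± 0.16. The ratio of *Hnrnpl* to *Hnrnpll*, free of any scaling, was 4.29, 6.53 and 5.08 in WT and 7.14, 6.92, 7.67 and 7.93 in KO. Every KO library was higher, by 0.50 on the log2 scale, with an exact permutation p of 0.0286 and 0.143 after adjustment over the 10 pairs. That pair too was chosen with its values known, so these p-values are a description only.

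The other hnRNP genes overlapped between the genotypes. *Hnrnpa0*, which takes part in the stability of inflammatory mRNAs, had the other positive value (0.21 ± 0.19), and the rest ran from -0.21 for *Hnrnpa1* to -0.03 for *Hnrnph3*, the member with the smallest change in this family. *Hnrnph3* had 7.52, 6.23 and 6.45 CPM in WT and 6.79, 6.35, 7.02 and 6.16 CPM in KO. In between were *Hnrnpf* (-0.20), *Hnrnpk* (-0.13), *Hnrnph2* (-0.12), *Hnrnph1* (-0.11), *Hnrnpu* (-0.09), *Hnrnpd* (-0.06), *Hnrnpm* (-0.06) and *Hnrnpc* (-0.05), with standard errors from 0.14 to 0.20. These cover the G-tract binders of the F/H group, the poly(C) binder hnRNP K, the AU-rich element binder hnRNP D and the U-tract binder hnRNP C.

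**Figure D4:**
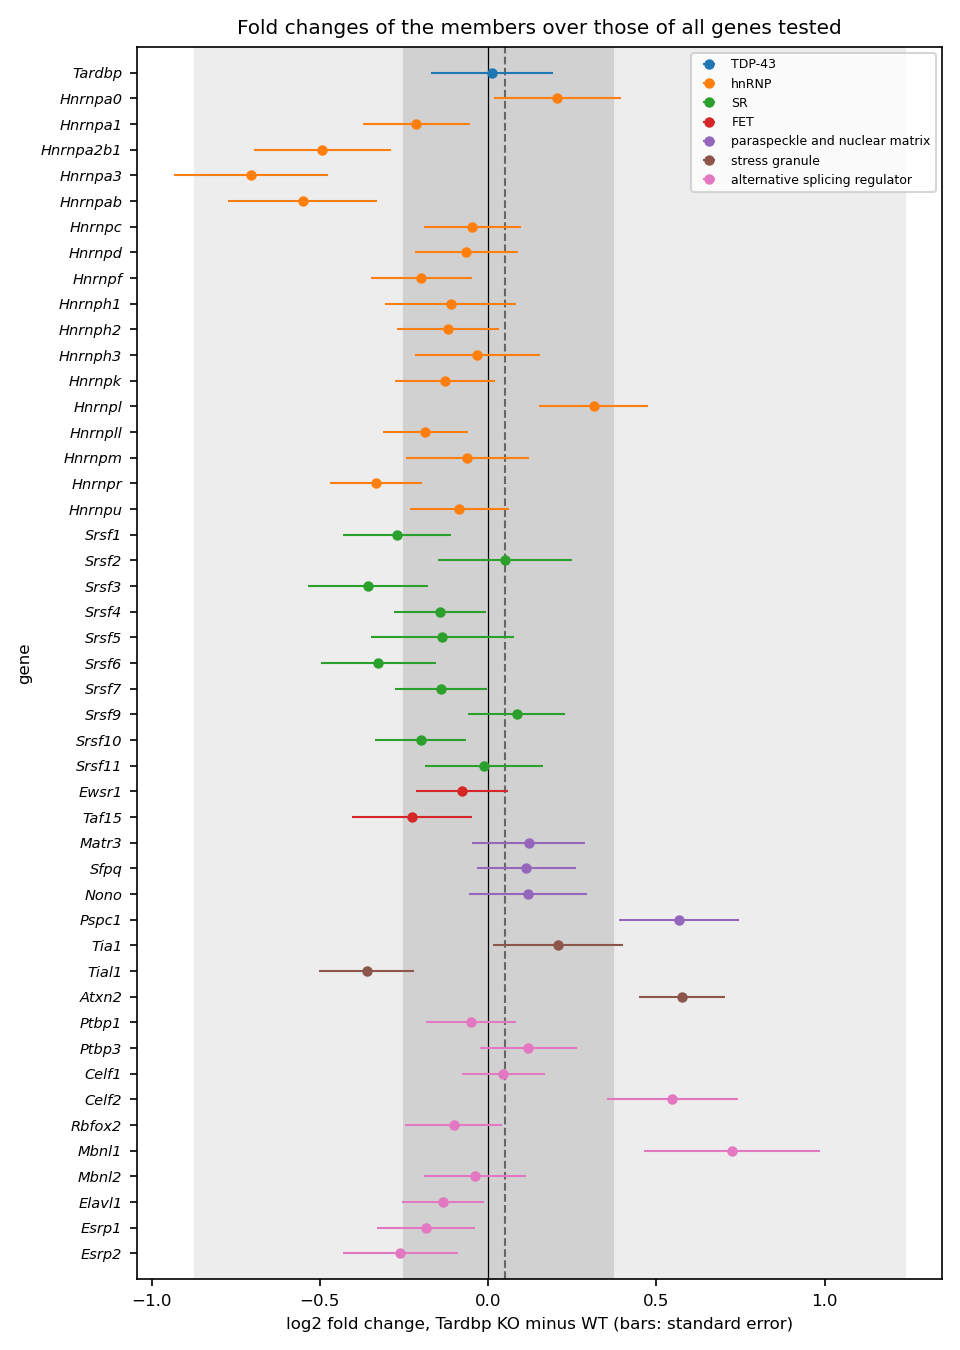
Log2 fold change (*Tardbp* KO minus WT, TMM scaling) of each gene with its standard error, coloured by role. The dark and light grey bands hold the central 50% and 90% of all 17175 genes tested, the dashed line is their median of 0.05, and all members lie inside the light band, from -0.71 for *Hnrnpa3* to 0.72 for *Mbnl1*.

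Of the 10 SR genes, 8 had a negative log2 fold change and 2 a positive one, with a median of -0.14 (-0.19 from the median of all genes, and 10 positive values when scaled by library size alone). The lowest adjusted p in edgeR was 0.287, that of *Srsf3*, a small SR protein that couples splicing to mRNA export. *Srsf6*, an SR protein that acts on the choice of splice sites, stood at 319, 225 and 221 CPM in WT and at 216, 203, 192 and 204 CPM in KO. Each KO library was lower, WT replicate 1 stood far above the rest, and the log2 fold change was -0.33 ± 0.17, or 0.06 when scaled by library size alone. *Srsf4* was the least abundant SR member as counted, with part of its exon bases shared with another gene. It had 18.4, 18.0 and 19.6 CPM in WT and 17.9, 17.6, 15.3 and 17.0 CPM in KO. The KO libraries lay just under the WT libraries, with a log2 fold change of -0.14 ± 0.14 (0.23 when scaled by library size alone).

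*Srsf9*, the other RNA-binding protein that the study had considered beside TDP-43, showed no difference beyond its spread. It had 52.6, 53.2 and 53.4 CPM in WT and 54.2, 50.9, 51.3 and 68.7 CPM in KO. The WT libraries lay in the middle of the KO libraries, of which replicate 4 was the high one, and the log2 fold change was 0.08 ± 0.14. *Srsf11* had the smallest change of the family, with 189.6, 199 and 138 CPM in WT, 159, 205, 168 and 163 CPM in KO and a log2 fold change of -0.01 ± 0.18. The others were *Srsf1*, the founding SR protein, with -0.27 ± 0.16, *Srsf10*, a splicing repressor when dephosphorylated, with -0.20 ± 0.13, *Srsf5* (-0.14), *Srsf7* (-0.14) and *Srsf2* (0.05).

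The FET genes, whose products link transcription to splicing, had negative values inside the spread. *Ewsr1* stood at 219.9, 199 and 186 CPM in WT and at 193, 191, 179 and 201 CPM in KO (log2 fold change -0.08 ± 0.14). *Taf15* had 122, 113 and 95.1 CPM in WT and 112, 74.5, 85.2 and 105 CPM in KO (-0.23 ± 0.18). When scaled by library size alone both were positive, with a median that lay at -0.20 from that of all genes.

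The 10 other regulators of alternative splicing had 6 negative and 4 positive values, with a median of -0.05. The largest belonged to *Mbnl1* and *Celf2*, 2 opposing regulators of splicing in development, of which muscleblind-like 1 is sequestered and CELF proteins are raised in myotonic dystrophy. *Mbnl1* stood at 62.3, 63.3 and 66.9 CPM in WT and at 129, 98.0, 137 and 59.9 CPM in KO. KO replicate 4 was below every WT library and the other 3 KO libraries were above them, with a log2 fold change of 0.72 ± 0.26 (adjusted p = 0.162 in edgeR). *Celf2* was likewise highest in KO replicates 1 to 3, while replicate 4 lay inside the WT range, with 31.3, 24.9 and 32.7 CPM in WT and 43.8, 43.2, 54.5 and 31.8 CPM in KO, a log2 fold change of 0.55 ± 0.20 (adjusted p = 0.16 in edgeR).

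Both genes are also expressed in white blood cells, and lymphocyte markers were not level between these libraries. The summed level of 10 lymphocyte genes, all of them detected in every library, was 56.9, 48.5 and 40.0 CPM in WT and 419.9, 66.7, 572 and 127 CPM in KO, and 4 of the 10 did not overlap between the genotypes. The 2 libraries with the most lymphocyte RNA were also those with the most *Mbnl1*, while KO replicate 2 had more *Mbnl1* than replicate 4 and less lymphocyte RNA. With the mean of these markers as a covariate the log2 fold change was 0.26 for *Mbnl1*, 0.31 for *Celf2*, 0.66 ± 0.20 for *Atxn2* and 0.54 ± 0.27 for *Pspc1*. The adjusted p in edgeR was then 0.594 for *Atxn2* and 0.606 for *Pspc1*. The summed marker level was higher in every KO library than in every WT library. Marker level and genotype are thus confounded, and this fit cannot separate them. In bulk tissue more cells of a type and more RNA per cell cannot be told apart.

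The epithelial regulators *Esrp1* and *Esrp2*, which hold the epithelial splicing programme, had -0.19 ± 0.15 and -0.26 ± 0.17. *Esrp2* stood at 118, 129 and 111 CPM in WT and at 91.6, 95.6, 83.6 and 128 CPM in KO, so that 3 of the 4 KO libraries were below WT. *Mbnl2* had the smallest change of this role, with 124, 91.9 and 115 CPM in WT and 114, 116, 102 and 97.1 CPM in KO (-0.04 ± 0.15). The remaining regulators were the polypyrimidine tract binding genes *Ptbp1* (-0.05) and *Ptbp3* (0.12), *Celf1* (0.04), *Rbfox2* (-0.10) and *Elavl1* (-0.13), the gene of the mRNA stabiliser HuR.

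Ratios of counts were formed for 10 pairs of related genes, chosen with these values already known. Their p-values are therefore a description, and the adjustment over the 10 pairs does not correct for the choice. Besides the 2 ratios above, the other 8 overlapped between the genotypes. That of *Mbnl1* to *Mbnl2* was 0.50, 0.69 and 0.58 in WT and 1.13, 0.84, 1.35 and 0.62 in KO, a log2 difference of 0.69 with an exact permutation p of 0.114. *Celf1* to *Celf2* differed by -0.49 (exact p = 0.0857), *Pspc1* to *Nono* by 0.45 (exact p = 0.114) and *Ptbp1* to *Ptbp3* by -0.17 (exact p = 0.114), each with 0.19 after adjustment over the 10 pairs. The smallest differences were those of *Hnrnph1* to *Hnrnph2* (0.01) and of *Sfpq* to *Nono* (-0.02).

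**Figure D5:**
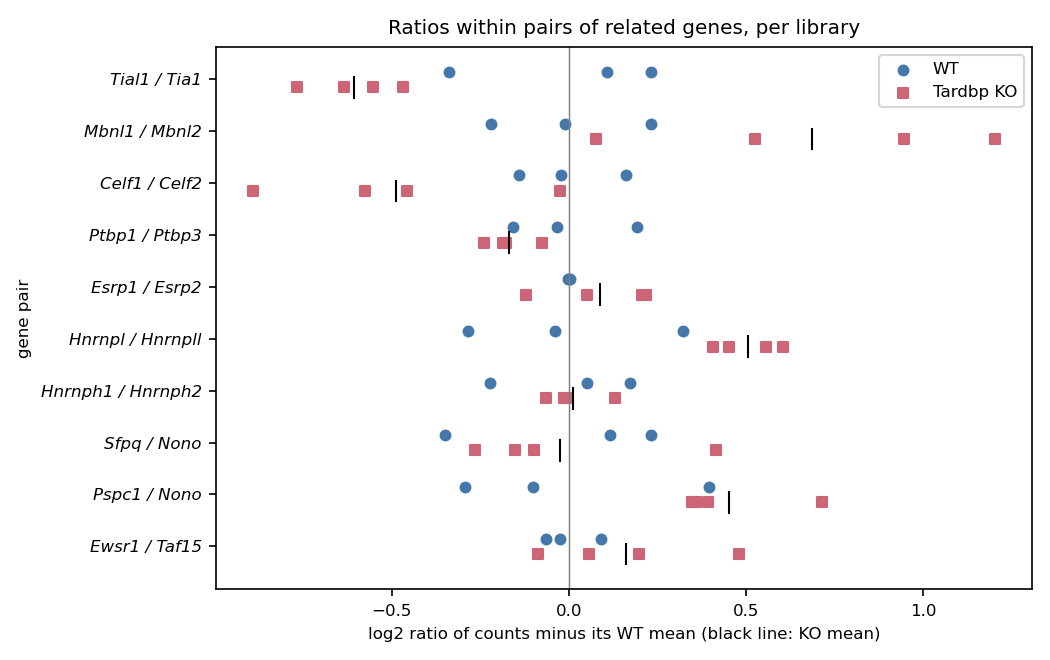
Log2 ratio of the counts of 2 related genes in each library, minus the mean of that ratio over the WT libraries (circles WT, squares *Tardbp* KO, black line KO mean). *Tial1* to *Tia1* and *Hnrnpl* to *Hnrnpll* are the pairs without overlap, at -0.61 and 0.50.

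The count of some members is limited by how reads were assigned, since reads with several places in the genome or over more than 1 gene were not counted. Of the windows of 50 bases along the exons, 84.3% recur elsewhere in the genome for *Hnrnpa1*, 82.5% for *Hnrnpa3* and 71.6% for *Hnrnpf*, and 9 members in all exceeded 25%. Reads that lie wholly in such windows were possibly lost from the count, so the levels of these genes are uncertain. The loss was not measured. The 7 hnRNP genes above 25% all had negative log2 fold changes (median -0.20), and so had 8 of the 10 others (median -0.08). Exons of another gene cover 75.5% of the exon bases of *Hnrnph3* (*Rufy2*), 43.3% of *Srsf4*, 26.9% of *Hnrnpab*, 24.8% of *Hnrnpm* (*March2*, same strand) and 24.3% of *Tardbp*, and as no strand was set in the counting, reads over these shared bases were not counted for either gene.

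Some shared features went with the fold change across the 47 genes, as a description over genes that share the same 7 libraries. Spearman's rho with the log2 fold change was 0.36 for the length of the gene with introns, against 0.04 over all genes tested, and 0.38 for the longest UG run in the gene, against 0.04. It was -0.18 for UG in runs per kb of transcript (-0.008 over the 15112 genes with a protein-coding transcript). For exon length it was 0.28 (0.03 over all genes) and for exon GC content 0.08 (0.06). For the mean CPM it was -0.17 (-0.16), and for the share of exon windows that recur in the genome -0.30. Whether these features are separate from one another was not tested. The exons of the members had a median GC content of 43.7%, against 50.03%, and a median exon length of 4709 bases, against 3263. With each library's trend in GC content and length removed, an alternative chosen after seeing the data, the members' median was -0.12 and that of all genes 0.00.

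The wider machinery was given by 5 lists with 104 genes, of which 103 could be matched and tested. Of these 42 had positive and 61 negative log2 fold changes, 3 higher and 9 lower at an unadjusted p under 0.05 (2.91% and 8.74%, against 10.7% and 10.7% of all genes), and none was called. The median was -0.09, as for the members. These signs also depend on the scaling, since with library size alone 91 of the 103 were positive and 12 negative, and the distance of their median from that of all genes was -0.14 with TMM and -0.13 there. Among 30 core spliceosome genes 21 were negative (median -0.11), and 6 when scaled by library size alone, at -0.16 from the median of all genes with either scaling. *Snrnp70*, the U1 snRNP protein that recognises 5′ splice sites, had 318, 303 and 255 CPM in WT and 177, 144, 162 and 188 CPM in KO. All KO libraries were lower, by -0.80 ± 0.16 on the log2 scale (adjusted p = 0.0712 in edgeR) and by -0.43 when scaled by library size alone.

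Of 14 genes of nuclear import, which carries these proteins into the nucleus, 12 were negative, with a median of -0.31. When scaled by library size alone 3 were negative and 11 positive, and the median lay at -0.33 from that of all genes, against -0.36 with TMM. *Kpna2*, an importin alpha, had 66.5, 35.6 and 51.3 CPM in WT and 45.8, 26.6, 33.0 and 27.1 CPM in KO (-0.63 ± 0.25), and *Kpnb1*, importin beta, had -0.43 ± 0.18. *Kpna3* had 35.5, 32.3 and 29.1 CPM in WT and 37.1, 41.5, 43.9 and 37.4 CPM in KO, all above WT (0.31 ± 0.13). The 29 other hnRNP relatives that were tested had 16 positive and 13 negative values. *Khdrbs1*, the gene of the signalling RNA-binding protein SAM68, was higher in each KO library (0.36 ± 0.12), and *Rbm10*, a repressor of cassette exons, was lower in each (-0.42 ± 0.13). The SR partners and kinases (16 genes, median 0.01) and the genes of the exon junction complex and nonsense-mediated decay (14 genes, median -0.03) held no gene with an unadjusted p under 0.05.

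Library depth was similar, between 36007737 and 42811337 counts. The luminal epithelium was evident in every library, with a summed level of 10 luminal markers between 169295 and 237328 CPM in WT and between 56946 and 128002 CPM in KO, and 4 of the 10 markers were lower and 2 higher in every KO library. The milk protein genes *Csn2* and *Wap* made up most of this sum, with means of 130548 and 55198 CPM in WT. The keratins *Krt8*, *Krt18* and *Krt19*, with *Epcam*, *Cdh1* and *Cldn3*, had positive log2 fold changes. Those of *Elf5* (-0.59), *Csn2* (-1.08), *Wap* (-1.10) and *Lalba* (-1.42) were negative. The median over the 10 markers was 0.23. The study counts the libraries of each genotype as mice, so the p-values measure the spread between animals.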

How the data were processed

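RNA of 7 mammary glands at lactation day 1 was sequenced as paired-end reads. The authors mapped them with STAR (2.5.2a in the submitters' processing notes, another version in the study's methods) to mouse assembly NCBIM37 and deposited raw counts per gene for 37310 genes, made with featureCounts 1.4.6-p5 on the exons of GENCODE vM1. Per the file headers no option was set for strand, pairs or multimapping reads, so both strands were counted, mates counted separately, and reads that mapped to several places or spanned several genes were left uncounted. The command line names 1 further library without a column, not analysed here.

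Following the study's methods, 37 mitochondrial and 580 ribosomal genes were set aside, and a minimum of 5 counts in 4 or more of the 7 libraries left 17175 genes. WT and *Tardbp* KO were compared with edgeR 4.0.16 (TMM, quasi-likelihood test, Benjamini-Hochberg adjustment over all genes tested) in R 4.3.3. A call required an adjusted p below 0.01 together with a log2 fold change beyond 1 in either direction. The test was checked on simulated data. The p-values of gene pairs and of *Tardbp* come from 2-sided exact permutation tests over the 35 arrangements of genotype labels. Library totals lay between 36007737 and 42811337 counts. Alternatives were other normalisations, filters and tests (edgeR's exact test, DESeq2 1.42.0), a replicate block, a lymphocyte marker covariate, lane 4 only and each library left out. A fit with each library's trend in GC content and exon length removed was added after seeing the data. Sequences were read from the NCBIM37 genome and GENCODE vM1 transcripts.

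The genes and lists were chosen with earlier results of these data known. Values are given for every library for *Tardbp*, *Srsf9*, the genes without overlap between the genotypes and the gene with the smallest change in each role. From the wider lists at most 3 genes with the lowest p were named. Per-library values of *Hnrnpab*, *Hnrnpl*, *Mbnl1*, *Celf2*, *Esrp2*, *Taf15* and *Nono* were added after their values were seen. *Hnrnpll* and *Ptbp3* carry older symbols in the annotation (*Hnrpll*, *Rod1*). *Qk* matched 2 entries and was left out.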

Additional observations from a re-analysis of the deposited data

Results flagged for a closer look

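Levels of the 4 *Tardbp* KO libraries were screened in 62 genes (the members and up to 3 genes of each wider list) for a library far from the other 3, with the ratio of the gap to the range above Dixon's critical value, which chance alone passes in about 1 of 20 groups. *Sfpq*, the paraspeckle and splicing factor gene, was flagged because KO replicate 1 stood at 212 CPM and the other KO libraries between 163 and 169.7 CPM, a ratio of 0.85. *Syncrip*, the gene of an hnRNP relative that acts in mRNA transport and stability, was flagged because KO replicate 1 stood at 84.8 CPM and the others between 68.8 and 69.1 CPM, a ratio of 0.98.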

How the results depend on the processing

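No member was called under any alternative with both limits, and 1, *Atxn2*, was called by DESeq2 with the limit on the fold removed. Calls rest on 3 and 4 libraries, and a member's difference had a median SE of 0.16 on the log2 scale. Of 450 values under alternatives, 390 kept their direction or size, 37 turned sign and 23 moved. Where a cause is not named, the cause was not tested. Log2 fold changes below are those of the 17 members named by the rule for values in every library, beside the count over all 47.

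With the library size as the sole scaling, the members' median log2 fold change was 0.29. There 21 members were higher and 0 lower without overlap, against 25.8% and 2.54% of all genes tested. At an unadjusted p under 0.05 in edgeR's quasi-likelihood test, 15 members were higher and 0 lower. Counts at that p under the alternatives have no share of all genes beside them, so they are not read as a result about the members. With this scaling the higher level is shared by genes outside the group. The sign turned there in 29 of 47 members, among the 17 in *Tial1* (0.016), *Hnrnpr* (0.053), *Srsf6* (0.061), *Hnrnpll* (0.19), *Srsf4* (0.23), *Hnrnph3* (0.35), *Srsf11* (0.37), *Ewsr1* (0.30) and *Mbnl2* (0.34). With the members' own median held equal, an alternative chosen after seeing the data, that median was 0.0018, 2 members were lower at that p, and 9 of 47 turned, among the 17 *Hnrnph3* (0.061), *Srsf11* (0.083), *Ewsr1* (0.012) and *Mbnl2* (0.052). With the upper quartile 4 were lower without overlap (against 9.10% of all genes), and *Srsf11* was 2.2e-06. *Tardbp* was -0.0050 both with DESeq2's size factors and in DESeq2's test. The filter of at least 10 counts gave 0.0049 for *Srsf11*. With the lymphocyte covariate 1 member was higher and 0 lower at that p, and *Srsf11* was 0.14. In lane 4 (1 WT and 2 KO libraries, no test) 8 were higher and 22 lower without overlap, against 31.8% and 32.3% of all genes. There 10 of 47 turned, among the 17 *Hnrnph3* (0.083), *Tia1* (-0.22) and *Mbnl2* (0.11).

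With single libraries left out, the members' median ran from -0.14 to -0.00036, the latter without WT replicate 1. Members higher without overlap were 2 to 5 (4 without KO replicate 4 and 5 without WT replicate 2), and lower 6 to 11 (11 without KO replicate 1 or WT replicate 2). Over all genes the higher share was 13.3% with KO replicate 4 left out and 19.8% with WT replicate 2 left out. The lower share was 12.8% with KO replicate 1 left out and 17.6% with WT replicate 2 left out. At an unadjusted p under 0.05, 2 to 4 members were higher (2 without KO replicate 3) and 0 to 5 lower (2 without KO replicate 2, 1 without KO replicate 3, 0 without WT replicate 1 and 3 without WT replicate 3). These counts too have no share of all genes beside them and are not read as a result about the members. The range of the log2 fold change crossed 0 in 11 of 47 members, among the 17 in *Tardbp* (-0.091 to 0.16), *Srsf9* (-0.046 to 0.13), *Hnrnph3* (-0.083 to 0.055), *Srsf11* (-0.16 to 0.088) and *Mbnl2* (-0.15 to 0.052).

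Replicate numbers are shared by the genotypes, and the deviations of same-numbered libraries correlated with r = 0.44, 0.07 and -0.08, so the numbers were not taken as pairs. With the replicate block 0 members were called, and the sign turned in 6 of 47, among the 17 in *Tardbp* (-0.040), *Srsf9* (-0.027), *Hnrnph3* (0.0019), *Srsf11* (0.028) and *Mbnl2* (0.014).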
